A study of Mus musculus with 10 samples.

Results

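The 10 genes described here encode the enzymes that make ceramide from palmitoyl-CoA: the serine palmitoyltransferase subunits Sptlc1, Sptlc2, Sptlc3 and Sptssa, the ketodihydrosphingosine reductase Kdsr, the ceramide synthases Cers2, Cers4, Cers5 and Cers6, and the dihydroceramide desaturase Degs1. They are grouped by name, as the successive steps of a pathway whose substrate comes from palmitate. Of the 18055 genes listed in at least 1 library, 9 were members, and Sptlc3 was listed in none.

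Ceramide is built on the endoplasmic reticulum. Serine palmitoyltransferase joins serine to palmitoyl-CoA, the reductase turns the product into dihydrosphingosine, a ceramide synthase adds a second fatty acid, and the desaturase then places the double bond that makes dihydroceramide into ceramide. Each ceramide synthase prefers fatty acids of certain lengths, so the synthases that a cell expresses shape the ceramides it can make, and in liver long-chain ceramides are known for their link to insulin resistance and fatty liver.

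RNA sequencing was performed on primary hepatocytes from C57BL/6 mice in 5 groups of 2 libraries. The labels give a culture medium with fetal bovine serum, while the study's methods describe a change to medium without serum before such treatments. The Vehicle group received no free fatty acid (FFA), the PA group 200 µM palmitate and the LA group 12 µM linoleate, each for 24 h. The PA+NTP and LA+NTP groups received the same FFA after 1 h of pretreatment with 0.4 NU/mL Neurotropin (NTP), a drug used against chronic pain. There was no group with NTP alone, and the FFAs were given at different concentrations, so PA and LA are set side by side as treatments and not as matched doses. The labels do not say whether the libraries of a group came from separate mice or cultures, so p-values measure the spread between libraries, which may be technical.

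The total expected count was 18795990 and 26900384 in Vehicle, 13142588 and 39052570 in PA, 30743849 and 31901493 in PA+NTP, 32312383 and 23696170 in LA, and 35959385 and 60046937 in LA+NTP, a 4.57-fold span. Levels are given as FPKM, fragment counts scaled by transcript length and library depth, which allows genes of different length to be compared. Changes are log2 fold changes of expected counts with their standard error (SE) from edgeR's quasi-likelihood test over all 5 groups, with p-values adjusted by Benjamini-Hochberg over the 14097 genes tested. A gene was called when its adjusted p was under 0.05 and its fold change at least 1.5, which is 0.585 on the log2 scale. Where an adjusted p is ranged over alternative settings, the DESeq2 and limma settings give their own adjusted p in place of edgeR's.

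All 7 hepatocyte markers were listed in every library, with Alb the most abundant, and their summed FPKM was 4121 and 3894 in Vehicle, 2850 and 2551 in PA, 3589 and 3163 in PA+NTP, 3943 and 3819 in LA, and 4973 and 4639 in LA+NTP. The PA libraries were thus the lowest and the LA+NTP libraries the highest. Of the 7 macrophage markers, whose sum was 205 and 205 in Vehicle, 201 and 237 in PA, 264 and 294 in PA+NTP, 123 and 128 in LA and 179 and 192 in LA+NTP, Cd68 made up most, and the Kupffer cell markers Clec4f, Vsig4 and Timd4 stayed at or under 0.30. Marco, a scavenger receptor of macrophages in the same list, was at 2.90 to 4.59 FPKM in the 4 palmitate libraries and 0.42 to 0.95 in the other 6. Clec4f went the other way, at 0.03 to 0.08 in the palmitate libraries and 0.13 to 0.29 in the others. The rest of the list, such as Adgre1 and Csf1r, overlapped between them. The 7 stellate cell markers summed to between 21.7 and 28.8, led by Dcn, the 6 sinusoidal endothelial markers to between 28.3 and 41.4, led by Cdh5, and the 4 cholangiocyte markers to between 7.68 and 14.6, led by Sox9. The part of the hepatocyte, macrophage, stellate, endothelial and cholangiocyte marker differences in the results below was not tested. Fewer cells of a type cannot be told apart from less RNA per cell.

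The libraries differed in how expression followed the GC content of the transcript. Across 13930 genes within a library, Spearman's rho between a gene's deviation from its mean over libraries and its GC content was -0.47 and -0.48 in PA and -0.57 and -0.57 in LA. It was 0.43 and 0.39 in Vehicle, 0.41 and 0.35 in PA+NTP, and 0.58 and 0.54 in LA+NTP. The 4 libraries with an FFA and no NTP thus held relatively more of AT-rich transcripts than the other 6, with no overlap. Because this GC trend separates the same groups as the treatments do, the trend and the treatments cannot be told apart, and values after a smooth GC trend was removed from every library stand beside most of the members' changes in the FFA and NTP comparisons. The members' transcripts ran from 40.7% GC in Sptssa through 41.7% in Kdsr, 43.5% in Cers4, 44.7% in Cers6, 45.3% in Sptlc2, 46.5% in Degs1, 47.7% in Sptlc1 and 51.2% in Cers5 to 51.4% in Cers2, against a median of 50.1% over the genes tested.

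In Vehicle, Cers2 was the most abundant member at 161 ± 6.36 FPKM (SD, n = 2), followed by Degs1 at 42.1 ± 0.693, Sptlc2 at 30.7 ± 0.184, Sptssa at 17.6 ± 0.0283 and Sptlc1 at 11.4 ± 0.099 (SD, n = 2 each). Cers5 at 5.91 ± 0.615 and Kdsr at 5.41 ± 0.311 did not differ beyond their spread, and Cers6 lay lower at 4.61 ± 0.12 (SD, n = 2 each). Cers4 was the lowest listed member at 0.165 ± 0.0354 (SD, n = 2). The transcripts of the last step and of the Cers2 branch therefore stood above those of the first enzyme's subunits in untreated cells.

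**Figure D1:**
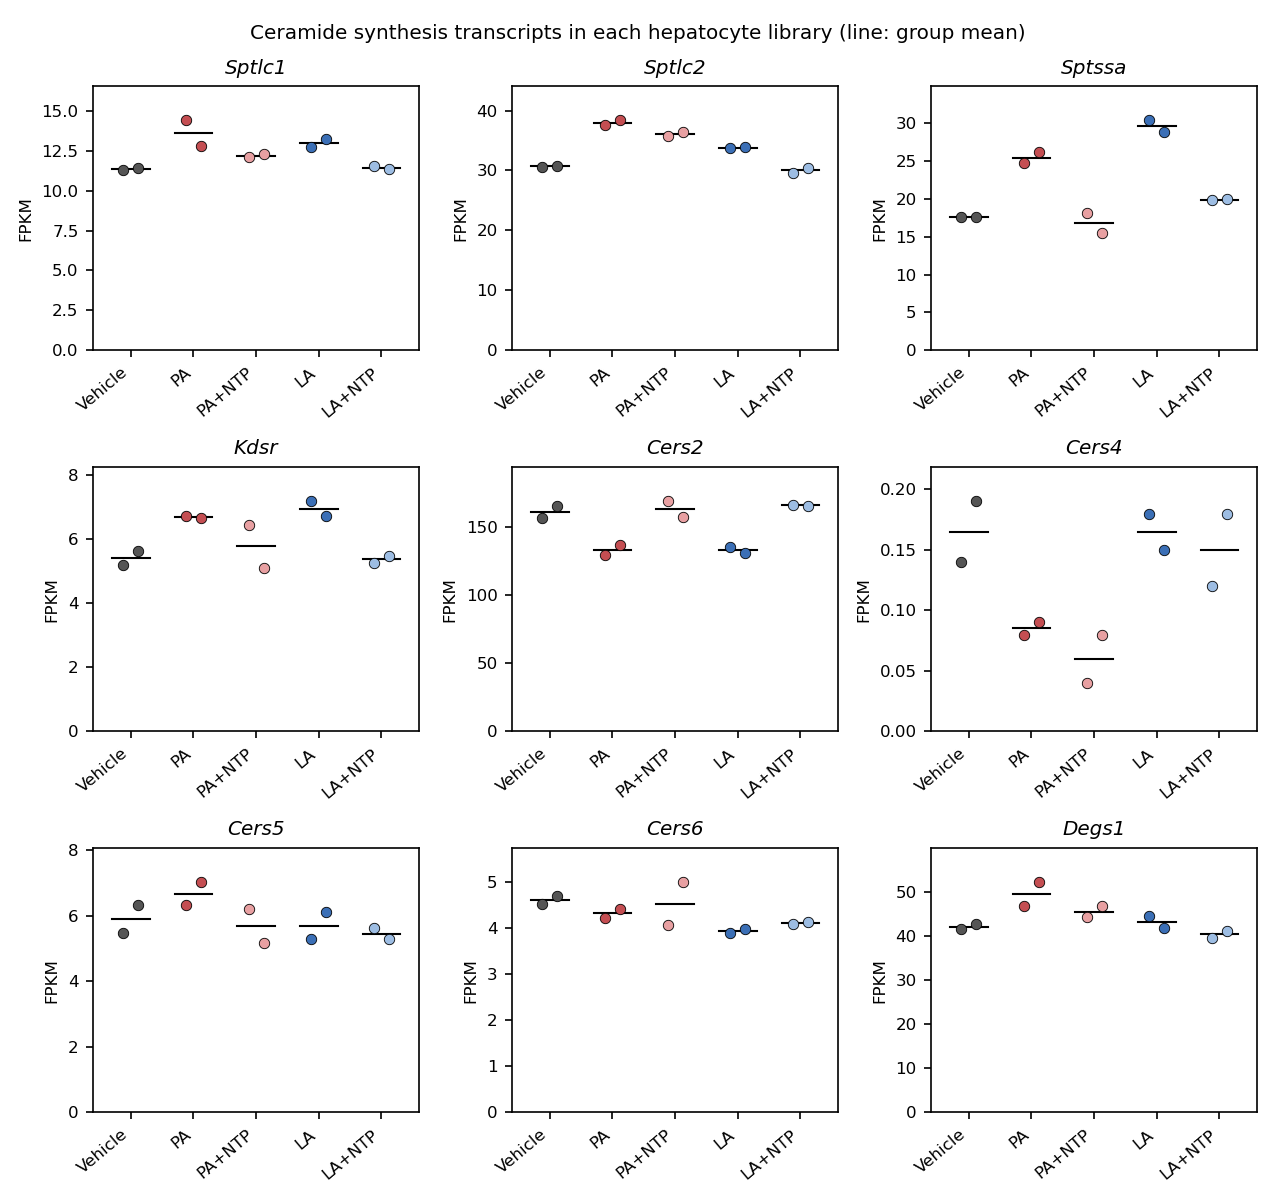
FPKM of the 9 listed members in each of the 10 libraries, with a panel per gene and an axis from 0; points are libraries and lines the mean of a group of 2. Sptssa is highest in LA (28.8 and 30.4) and PA (24.7 and 26.2), and Cers2 is lowest in the same 4 libraries (129 to 137).

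The first and rate-limiting step is carried out by serine palmitoyltransferase, in which Sptlc1 pairs with the catalytic subunit Sptlc2 or Sptlc3, and a small subunit, Sptssa or Sptssb, raises the activity of the pair. Sptssa (gene ID 104725) lies at chr12:54645374-54656572 on the minus strand (GRCm38.p6) and its transcript has 2 exons. Sptssa was at 17.6 and 17.6 FPKM in Vehicle, 24.7 and 26.2 in PA, 18.1 and 15.5 in PA+NTP, 30.4 and 28.8 in LA, and 19.8 and 20.01 in LA+NTP. Both LA libraries were the highest, both PA libraries came next, and neither overlapped with the 6 libraries of Vehicle and the NTP groups.

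The promoter of Sptssa is shown with those of Ormdl1, an inhibitor of serine palmitoyltransferase whose transcript was also highest in PA and LA, and of Cers2, which was lowest there, so that genes that moved alike and apart can be read side by side. Promoters of all 10 members were matched in RefSeq (GRCm38.p6), as windows of 300 bases around the start site. The windows are chr12:54656523-54656822 on the minus strand for Sptssa, chr1:53296845-53297144 on the plus strand for Ormdl1 and chr3:95314940-95315239 on the plus strand for Cers2, the first of the 2 windows listed for that gene. Capitals mark 5 motifs searched on either strand. Among 32851 promoters of the same length, 37.4% held CCAAT, 35.7% held GGGCGG, 13.6% held TATAAA, 7.15% held CACGTG and 1.79% held TGACGTCA. No motif overlapped another in the windows printed.
Sptssa promoter: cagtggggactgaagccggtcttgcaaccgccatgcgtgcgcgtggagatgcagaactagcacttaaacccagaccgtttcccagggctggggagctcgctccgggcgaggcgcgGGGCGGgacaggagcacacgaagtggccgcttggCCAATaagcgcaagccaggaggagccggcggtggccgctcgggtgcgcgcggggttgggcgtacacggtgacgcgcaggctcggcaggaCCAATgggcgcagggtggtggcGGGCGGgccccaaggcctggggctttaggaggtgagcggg
Ormdl1 promoter: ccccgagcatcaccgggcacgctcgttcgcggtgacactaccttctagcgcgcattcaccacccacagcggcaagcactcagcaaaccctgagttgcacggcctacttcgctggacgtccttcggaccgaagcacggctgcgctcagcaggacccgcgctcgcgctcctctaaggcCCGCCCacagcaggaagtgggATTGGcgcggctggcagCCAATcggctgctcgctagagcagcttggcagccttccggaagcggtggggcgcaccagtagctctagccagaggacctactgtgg
Cers2 promoter: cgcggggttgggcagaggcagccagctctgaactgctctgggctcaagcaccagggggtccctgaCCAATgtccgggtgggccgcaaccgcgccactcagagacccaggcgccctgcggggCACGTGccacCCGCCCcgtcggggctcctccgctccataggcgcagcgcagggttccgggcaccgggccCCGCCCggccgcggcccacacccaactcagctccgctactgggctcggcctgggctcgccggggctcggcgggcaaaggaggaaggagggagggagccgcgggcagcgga

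Sptssa and Ormdl1 both held CCAAT or its complement at 2 places, at positions -101 and -12 in Sptssa and -53 and -36 in Ormdl1, counted from the start site. GGGCGG or its complement stood at -135 and 11 in Sptssa, at -74 in Ormdl1, and at -119 and -60 in Cers2. Cers2 had 1 CCAAT at -185 and a CACGTG at -129, and none of the 3 windows held TATAAA or TGACGTCA. The windows were 70% GC for Sptssa, 65.7% for Ormdl1 and 75% for Cers2, against a median of 52.7% over all promoters. Kdsr, also highest in PA and LA, held 0 CCAAT, Sptlc1 held 1 and Sptlc2 held 3, so the number of these matches did not follow the change in FPKM, and the 3 windows printed were picked after the values were seen. These matches describe letters and not binding.

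Sptssa rose 1.74-fold in LA against Vehicle (log2 fold change 0.80 ± 0.08 SE, edgeR adjusted p = 8.32e-06). In PA the difference was 1.48-fold (0.57 ± 0.08, edgeR adjusted p = 9.81e-05), just under the fold threshold, and it passed that threshold when PA replicate 1 was left out (0.60). With NTP the transcript fell 1.58-fold under PA (-0.66 ± 0.08, edgeR adjusted p = 2.38e-05) and 1.53-fold under LA (-0.61 ± 0.08, edgeR adjusted p = 1.88e-05). Over both FFAs, 4 libraries against 4, the NTP difference was -0.64 ± 0.06 (edgeR adjusted p = 3.17e-07). Against Vehicle the NTP groups differed by -0.09 ± 0.08 under PA and 0.18 ± 0.08 under LA, and neither was called (edgeR adjusted p = 0.555 and 0.329).

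Each of these calls ended when the GC trend was removed. Sptssa then stood at 0.43 in LA (edgeR adjusted p = 0.00246) and 0.24 in PA (0.0368) against Vehicle, at -0.33 for NTP under PA (0.00702), -0.17 under LA (0.101) and -0.25 over both (0.002), so the signs held and the sizes were smaller in these 5 comparisons. Those adjusted p-values were the largest among the alternatives that kept all libraries; the smallest were 9.61e-15, 8.33e-08, 1.24e-10, 3.93e-10 and 2.69e-20. The NTP call under LA was also lost with library totals in place of TMM factors (-0.57), with limma on log2(FPKM + 1) (-0.55) and log2(FPKM + 0.1) (-0.57), and without LA replicate 1 (-0.58). The NTP call under PA was lost with limma on log2(FPKM + 1) (-0.57) and without PA+NTP replicate 2 (-0.58), and the call over both FFAs with either limma setting (-0.56 and -0.58).

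An exon of Sptssa holds the microRNA gene Mir1892 on the same strand, and the authors' counts gave it reads of its own. Its mature form in RefSeq (GRCm38.p6, chr12:54645943-54645964, minus strand) is printed with the seed, bases 2 to 8, in capitals, because reads from this stretch can be assigned to either gene.
mmu-miR-1892: aUUUGGGGacgggagggaggau

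Mir1892 received 4.32 and 24.1 expected counts in Vehicle, 0.59 and 0 in PA, 29.3 and 9.13 in PA+NTP, 0 and 1.72 in LA, and 22.4 and 30.7 in LA+NTP. It was thus lowest where Sptssa was highest, and it held from 0% to 3.74% of the counts of both genes in a library (1.32% over all libraries). When they were added to Sptssa, an alternative chosen after seeing the data, the difference was 0.76 in LA and 0.54 in PA against Vehicle, and -0.62 for NTP under PA. Under LA the NTP difference became -0.58, which ended that call.

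Sptlc2, the catalytic subunit (gene ID 20773, chr12:87305058-87388355, minus strand, 12 exons), was at 30.6 and 30.8 FPKM in Vehicle, 37.6 and 38.3 in PA, 35.8 and 36.4 in PA+NTP, 33.8 and 33.9 in LA, and 29.6 and 30.4 in LA+NTP. The PA libraries were the highest and the PA+NTP libraries next, both above LA, while LA+NTP lay at or just under Vehicle. Against Vehicle the log2 difference was 0.34 ± 0.06 in PA (edgeR adjusted p = 0.000192) and 0.19 ± 0.05 in LA (0.0142), both under the fold threshold. NTP gave -0.13 ± 0.05 under PA (edgeR adjusted p = 0.0658) and -0.21 ± 0.05 under LA (0.00424), and the difference of PA+NTP from Vehicle was 0.21 ± 0.05 (0.0254). For PA+NTP against Vehicle, the adjusted p of edgeR, DESeq2 or limma ran from 0.0124 to 0.0881 over the alternatives that kept all libraries. It was over 0.05 with only the groups compared (edgeR, 0.0881) and without Vehicle replicate 1, Vehicle replicate 2 or PA+NTP replicate 2. Leaving out 1 library put that difference between 0.17 and 0.25. After removal of the GC trend, the PA difference was 0.18 and that of PA+NTP against Vehicle 0.22, whereas the values for LA (-0.00) and for NTP under PA (0.03) and LA (0.01) were near 0 with the opposite sign. In that fit the PA and PA+NTP values against Vehicle kept an edgeR adjusted p under 0.05, and the values for LA and for NTP under LA did not.

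Sptlc1, the partner subunit (gene ID 268656, chr13:53332748-53377417, minus strand, 15 exons), ranged from 11.3 FPKM in Vehicle to 14.4 in PA replicate 1. Its 4 values in PA (14.4 and 12.8) and LA (12.7 and 13.2) lay above the 4 of Vehicle and LA+NTP, with PA+NTP between them at 12.1 and 12.3. The log2 difference from Vehicle was 0.28 ± 0.08 in PA (edgeR adjusted p = 0.0106) and 0.23 ± 0.08 in LA (0.0279). NTP gave -0.20 ± 0.08 under PA (0.0468) and -0.22 ± 0.08 under LA (edgeR adjusted p = 0.0244). The same values without the GC trend were 0.23, 0.16, -0.14 and -0.13, with edgeR adjusted p-values of 0.0467, 0.203, 0.198 and 0.243, so the last 3 were no longer under 0.05. Over all alternatives, left-out libraries included, these p-values ran from 0.00713 to 0.0811, 0.018 to 0.206, 0.0196 to 0.25 and 0.0145 to 0.245.

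The FPKM ratio of Sptlc2 to Sptlc1 stayed between 2.57 and 2.99 in the 10 libraries, highest in PA replicate 2. Sptssa was below Sptlc2 in every library, with a ratio of 0.577 and 0.570 in Vehicle, 0.658 and 0.682 in PA, 0.507 and 0.424 in PA+NTP, 0.899 and 0.851 in LA, and 0.670 and 0.659 in LA+NTP. The LA libraries had the most Sptssa per Sptlc2, and LA+NTP overlapped with PA. These ratios are given as values without a test. Sptlc3, the alternative catalytic subunit, and the small subunit Sptssb were not listed in any library, where only genes of at least 0.01 FPKM appear.

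Kdsr, the reductase of the next step (gene ID 70750, chr1:106720410-106759742, minus strand, 10 exons), was at 5.19 and 5.63 FPKM in Vehicle, 6.73 and 6.66 in PA, 6.45 and 5.10 in PA+NTP, 7.17 and 6.72 in LA, and 5.25 and 5.47 in LA+NTP. The 4 libraries with an FFA alone were the highest, while the PA+NTP libraries were far apart, replicate 1 close to PA and replicate 2 below Vehicle. PA+NTP was also the group whose libraries differed most over genes (chi-square per gene 16.4, against 3.81 to 8.92 in the other groups). The log2 difference from Vehicle was 0.34 ± 0.10 in PA (edgeR adjusted p = 0.0113) and 0.40 ± 0.10 in LA (0.00377), and NTP gave -0.27 ± 0.09 under PA (0.0306) and -0.41 ± 0.09 under LA (0.00171). None reached the fold threshold. Without the GC trend, the values were 0.04, 0.07, 0.03 and -0.02, where the NTP difference under PA changed sign. The edgeR adjusted p was 0.768, 0.639, 0.866 and 0.915, while over all alternatives, left-out libraries included, it ran from 0.00165, 0.000111, 0.00199 and 2.55e-05 to 0.768, 0.645, 0.893 and 0.929.

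Cers2 makes ceramides with very long chains and is the main ceramide synthase of liver. Cers2 (gene ID 76893) lies at chr3:95314771-95323599 on the plus strand, with 11 exons, and its ends overlap Setdb1 by 75 bases and 6330562C20Rik by 44 on the other strand. Cers2 was at 156 and 165 FPKM in Vehicle, 129 and 137 in PA, 168 and 157 in PA+NTP, 135 and 131 in LA, and 166 and 165 in LA+NTP. It was the only member whose 4 libraries with an FFA alone were all below the other 6.

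The log2 difference of Cers2 from Vehicle was -0.24 ± 0.06 in PA (edgeR adjusted p = 0.0036) and -0.22 ± 0.06 in LA (0.00617). NTP gave 0.23 ± 0.06 under PA (0.00422) and 0.27 ± 0.06 under LA (edgeR adjusted p = 0.00107), and 0.25 ± 0.04 over both (7.99e-05). The largest of these, 1.21-fold, was under the fold threshold. With the GC trend removed, Cers2 kept its direction at -0.15, -0.14, 0.14, 0.16 and 0.15, and of the edgeR adjusted p-values (0.0701, 0.11, 0.0866, 0.0462 and 0.00775) the last 2 stayed under 0.05. They were the largest among the alternatives, of which the smallest were 0.000473, 0.00104, 0.00069, 3.69e-05 and 2.83e-08.

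Cers5 and Cers6 make palmitoyl ceramide, the form most often tied to lipid toxicity in hepatocytes. Cers5 (gene ID 71949, chr15:99735592-99772515, minus strand, 10 exons) ranged from 5.16 FPKM in PA+NTP replicate 2 to 7.02 in PA replicate 2, and Cers6 (gene ID 241447, chr2:68861145-69114284, plus strand, 10 exons) from 3.88 in LA replicate 1 to 4.98 in PA+NTP replicate 2. The Cers5 difference was 0.22 ± 0.13 in PA and -0.02 ± 0.13 in LA against Vehicle, and -0.30 ± 0.13 for NTP under PA and -0.10 ± 0.12 under LA. For Cers6 the same values were -0.06 ± 0.11, -0.18 ± 0.11, 0.01 ± 0.11 and 0.02 ± 0.11. No edgeR adjusted p of either gene was under 0.0666 in these comparisons. When the GC trend was removed, Cers5 stood at 0.30, 0.06 (a turned sign), -0.39 and -0.20, and Cers6 at -0.24, -0.40, 0.20 and 0.28. In that fit the edgeR adjusted p of Cers5 for NTP under PA (-0.39) was 0.0318 and that of Cers6 in LA (-0.40) was 0.0235; over all alternatives, left-out libraries included, they ran from 0.0312 to 0.344 and from 0.0162 to 0.445. For NTP over both FFAs, Cers5 moved from -0.20 to -0.30 and Cers6 from 0.02 to 0.24 when the trend was removed (edgeR adjusted p = 0.0135 and 0.0207, over all alternatives 0.0131 to 0.211 and 0.0137 to 0.998).

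Cers4, which prefers chains of intermediate length (gene ID 67260, chr8:4492818-4529603, plus strand, 11 exons), received only 4 to 39.1 expected counts a library. Its FPKM was 0.14 and 0.19 in Vehicle, 0.08 and 0.09 in PA, 0.04 and 0.08 in PA+NTP, 0.18 and 0.15 in LA, and 0.12 and 0.18 in LA+NTP. The 4 palmitate libraries were the lowest, but the counts behind them are few. Cers4 shares 1.77% of its 31-base stretches with other genes, among them olfactory and vomeronasal receptor genes. Cers4 also overlaps Vmn2r-ps89 by 886 bases on the other strand. The log2 difference of PA+NTP from Vehicle was -1.60 ± 0.56 (edgeR adjusted p = 0.0861), that of PA -0.91 ± 0.55 (0.191), and that of PA+NTP from LA+NTP -1.44 ± 0.52 (0.0842), and none was called. Without the GC trend these values were -1.59, -1.14 and -1.49. With limma on log2(FPKM + 1) they were -0.14, -0.10 and -0.12, and leaving out PA+NTP replicate 1 or 2 moved the first to -1.14 or -2.28 and the last to -0.97 or -2.12.

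Cers2 supplied 93.9% and 93.6% of the summed FPKM of Cers1 to Cers6 in Vehicle, 92.4% and 92.2% in PA, 94.2% and 93.9% in PA+NTP, 93.5% and 92.7% in LA, and 94.4% and 94.5% in LA+NTP. Cers5 supplied 3.29% and 3.60% in Vehicle, 4.54% and 4.74% in PA, 3.48% and 3.08% in PA+NTP, 3.65% and 4.33% in LA, and 3.19% and 3.02% in LA+NTP. The Cers2 share was lower, and the Cers5 share higher, in all 4 libraries with an FFA alone than in any of the 4 with NTP. Cers6 ranged from 2.27% to 3.02%, Cers4 and Cers3 reached at most 0.124% and 0.0354%, and Cers1 was not listed.

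Among the 8 FFA libraries, the mean Cers2 share was 94.3% ± 0.271 with NTP and 92.7% ± 0.594 without (SD, n = 4 each), a difference of 1.55 percentage points (exact two-sided permutation test, p = 0.0286). The Cers5 share was 3.20% ± 0.203 with NTP and 4.31% ± 0.475 without (SD, n = 4 each), a difference of -1.12 points (exact permutation p = 0.0286), which is the smallest p that 4 against 4 can give. After Benjamini-Hochberg adjustment over the 4 synthases tested, the permutation p was 0.0571 for both, so neither passed. The permutation exchanged libraries across both FFAs and not within each. Shares of the same total also depend on each other, so the Cers2 and Cers5 results are not separate. Cers6 differed by -0.39 points (exact permutation p = 0.114, adjusted 0.152) and Cers4 by -0.0268 points (exact permutation p = 0.286). As shares of expected counts, Cers6 differed by -0.72 points and Cers4 by -0.0521 points. Leaving out 1 library put Cers4 between -0.041 and -0.0142 points. Within 1 FFA, 2 libraries against 2 are too few for an exact permutation test to pass, and only values are given. The shares were not recomputed without the GC trend.

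**Figure D2:**
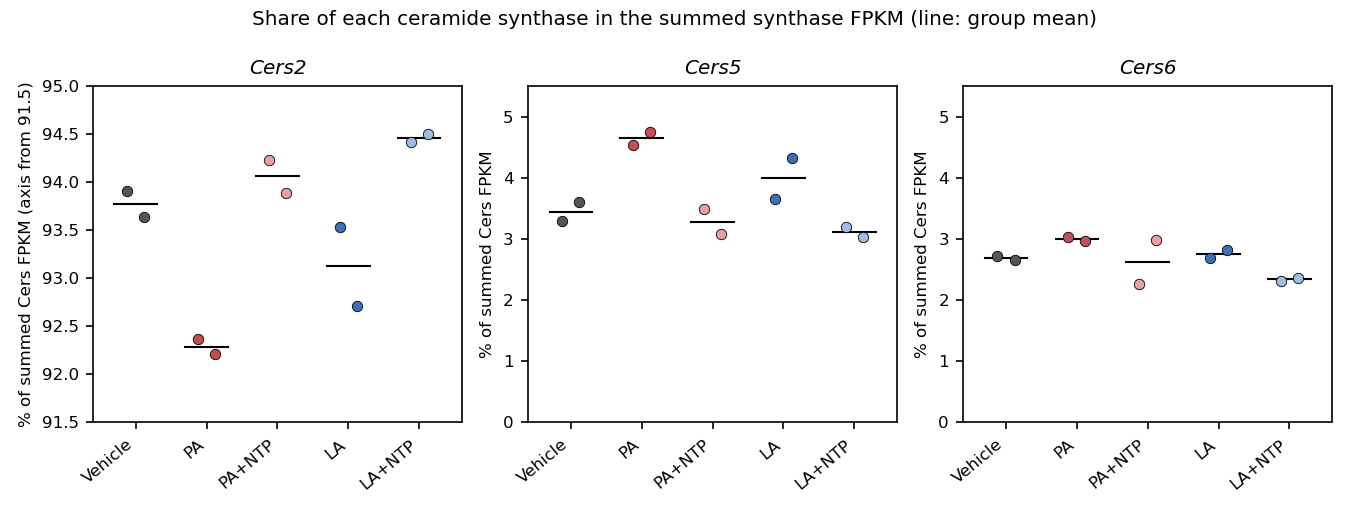
Share of Cers2, Cers5 and Cers6 in the summed FPKM of the 6 ceramide synthases, in percent, for each library; points are libraries and lines group means, and the Cers2 axis does not start at 0. The Cers2 share is 92.2% to 93.5% in PA and LA and 93.9% to 94.5% with NTP, and the Cers5 share mirrors it.

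Degs1, the desaturase of the last step (gene ID 13244, chr1:182275964-182282854, minus strand, 3 exons), was at 41.6 and 42.6 FPKM in Vehicle, 46.8 and 52.1 in PA, 44.2 and 46.6 in PA+NTP, 44.4 and 41.7 in LA, and 39.6 and 41.1 in LA+NTP. PA held the 2 highest libraries, and LA overlapped with Vehicle. The log2 difference from Vehicle was 0.27 ± 0.07 in PA (edgeR adjusted p = 0.00543) and 0.08 ± 0.07 in LA (0.389). NTP gave -0.18 ± 0.07 under PA (0.0411) and -0.14 ± 0.07 under LA (edgeR adjusted p = 0.109). Without the GC trend the PA difference was 0.16 and the LA difference -0.06, and the NTP values were -0.07 and 0.03, so the signs under LA turned. The edgeR adjusted p was then 0.0895 in PA and 0.49 for NTP under PA, both no longer under 0.05, and over all alternatives, left-out libraries included, it ran from 0.00191 to 0.0895 and from 0.0163 to 0.49. Degs1 shares 2.82% of its 31-base stretches with other genes, among them Gm6606.

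**Figure D3:**
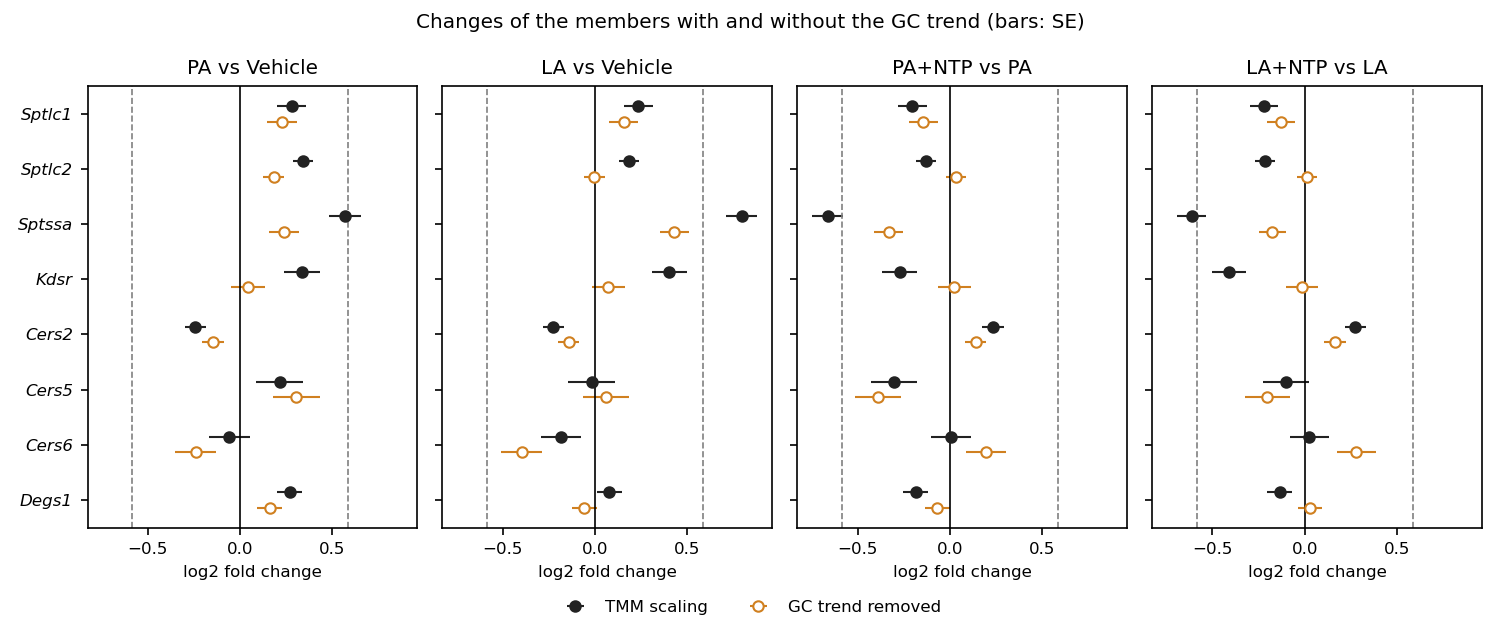
Log2 fold change with its SE for 8 members (Cers4, with few counts, is left out) in the 4 main comparisons, with TMM scaling (filled) and after removal of the GC trend (open); dashed lines mark a fold of 1.5. With TMM scaling Sptssa passes the lines in LA vs Vehicle (0.80), PA+NTP vs PA (-0.66) and LA+NTP vs LA (-0.61), and no open point passes them.

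Counted over the 9 tested members, PA against Vehicle called 0, where 14.9% of all genes tested were called. The count was also 0 by DESeq2, and 6 members had an unadjusted edgeR p under 0.05. By adjusted p alone 6 of 9 members passed, Sptssa, Sptlc1, Sptlc2, Kdsr and Degs1 higher and Cers2 lower, against 45.5% of all genes. The median log2 fold change of the members was 0.27, beside -0.01 for all genes.

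In LA against Vehicle 1 of 9 members was called, Sptssa, against 10.6% of all genes, and 5 passed by adjusted p alone, against 41.3%. PA+NTP against PA called 1 member, again Sptssa, against 13.9%, and 5 by adjusted p alone, against 44.7%. LA+NTP against LA called 1 member, Sptssa, against 19.3%, and 5 by adjusted p alone, against 51.5%. The members' medians were 0.08, -0.20 and -0.19, beside -0.01, 0.01 and 0.01 for all genes. NTP over both FFAs called 1 of 9 members against 17.8% of all genes, and 6 by adjusted p alone against 59.9%. The share of members called was close to or below that of all genes tested under the fold rule.

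With the GC trend removed, edgeR called 0 of 9 members in each of these comparisons. The share of all genes called was then 8.46% for PA and 3.26% for LA against Vehicle, 6.1% for NTP under PA, 5.79% under LA and 7.09% over both. The number of members with an unadjusted edgeR p under 0.05 in that fit was 7, 3, 3, 3 and 5. By adjusted p alone the members that passed numbered 3 in PA and 2 in LA against Vehicle, 2 for NTP under PA, 1 under LA and 4 over both, where the counts with TMM scaling were 6, 5, 5, 5 and 6. They were not all the same genes: Cers6 in LA, Cers5 for NTP under PA, and Cers5 and Cers6 over both passed without the GC trend and not with TMM scaling alone. The same share of all genes was 31.6%, 17.4%, 27.4%, 27.9% and 42%. The members' medians were 0.16, -0.00, -0.07, 0.01 and -0.02, beside 0.03, 0.02, -0.04, -0.03 and -0.03 for all genes. The part of the GC trend in the members' changes was not tested beyond this removal.

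**Figure D4:**
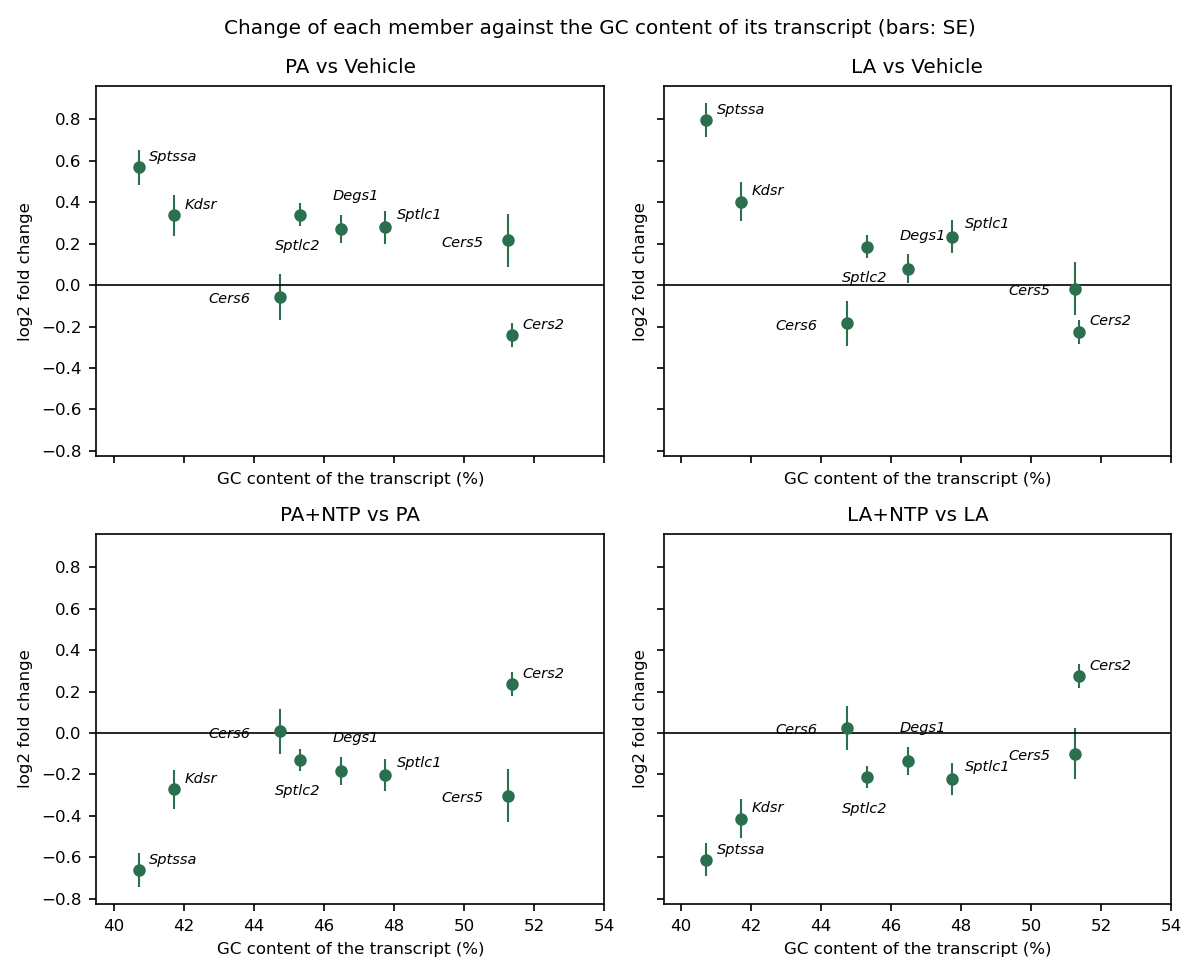
Log2 fold change with its SE for 8 members against the GC content of the transcript in percent, in the 4 main comparisons with TMM scaling. Sptssa, at 40.7% GC, has the highest value in PA and LA against Vehicle and the lowest for NTP under PA and LA, and Cers2, at 51.4%, lies at the other end in all 4 panels.

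The FFAs were also compared directly. PA against LA called 0 of 9 members against 3.23% of all genes (0 by DESeq2, and 3 members with an unadjusted edgeR p under 0.05), and 0 by adjusted p alone against 11.1%. The differences with an unadjusted p under 0.05 were -0.23 ± 0.08 for Sptssa (edgeR adjusted p = 0.0914), 0.15 ± 0.05 for Sptlc2 (0.089) and 0.19 ± 0.07 for Degs1 (0.0934). Without the GC trend 1 member passed by adjusted p alone against 10.6% of all genes, Sptlc2 (0.18, edgeR adjusted p = 0.0493, over all alternatives 0.0411 to 0.292). PA+NTP against LA+NTP called 0 of 9 against 3.82% (0 by DESeq2, 3 with an unadjusted p under 0.05), and 2 by adjusted p alone against 14.8%. These were Sptlc2, higher under PA (0.24 ± 0.05, edgeR adjusted p = 0.00892), and Sptssa, higher under LA (-0.28 ± 0.08, 0.0334), and with the GC trend removed they stood at 0.20 and -0.35, where the same number of members, 2, passed by adjusted p alone against 12.8% of all genes. Over the alternatives that kept all libraries, the adjusted p of edgeR, DESeq2 or limma ran from 0.00245 to 0.0549 for Sptlc2 and from 0.00668 to 0.115 for Sptssa. For Sptlc2 it was over 0.05 with only the groups compared (edgeR, 0.0549) and without either LA+NTP library. For Sptssa it was over 0.05 in edgeR with only the groups compared (0.115) and with library totals (0.0626). The same held for the adjusted p of DESeq2 (0.0538) and of limma in either setting (0.0655 and 0.0634). It held too without either Vehicle library, PA+NTP replicate 2 or either LA+NTP library. Leaving out 1 library put the difference between 0.20 and 0.28 for Sptlc2 and between -0.37 and -0.19 for Sptssa.

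PA+NTP against Vehicle called 0 of 9 members against 2.85% of all genes, and 1 by adjusted p alone, Sptlc2, against 10.1%. LA+NTP against Vehicle called 0 against 0.0922%, and 0 by adjusted p alone against 0.284%. The test of whether NTP acted differently with PA than with LA called 0 members and 0% of all genes by either rule. DESeq2 called 0 members in all 3 comparisons, and 2, 1 and 0 members had an unadjusted edgeR p under 0.05. For Sptssa that contrast was -0.05 ± 0.11, and for Cers2 -0.04 ± 0.08 (edgeR adjusted p = 0.959 and 0.952). The 2 FFA comparisons share the Vehicle libraries and each NTP comparison shares its FFA libraries with the FFA comparison, so opposite signs across them are not independent.

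Serine palmitoyltransferase is held in check by the Ormdl proteins, which sense ceramide. Ormdl1 was at 11.4 and 11.2 FPKM in Vehicle, 18.9 and 21.1 in PA, 11.1 and 12.0 in PA+NTP, 18.5 and 17.7 in LA, and 11.2 and 11.1 in LA+NTP. This inhibitor and the activating subunit Sptssa were thus high in the same 4 libraries. Ormdl2 and Ormdl3 were more abundant than Ormdl1. Their mean FPKM was 27.2 and 29.1 in Vehicle, 34.4 and 26.8 in PA, and 31.8 and 27.7 in LA (n = 2 each). Ormdl1 rose in PA (0.87 ± 0.09, edgeR adjusted p = 3.66e-06) and LA (0.73 ± 0.09, 1.93e-05) and fell with NTP under PA (-0.85 ± 0.08, 3.3e-06) and LA (-0.74 ± 0.08, 4.76e-06). After removal of the GC trend (Ormdl1 is 40.5% GC) the values were 0.53, 0.36, -0.51 and -0.29 and the calls ended, with edgeR adjusted p-values from 0.000427 to 0.0162, the largest among the alternatives, whose smallest was 1.47e-16. Of the 4 regulators listed, Ormdl1, Ormdl2, Ormdl3 and Rtn4, it alone was called in each of the 4 comparisons, beside 14.9%, 10.6%, 13.9% and 19.3% of all genes.

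Of the remaining enzymes of the same steps, Sptssb, Cers1, Cers3 and Degs2, none was tested, since Cers3 reached at most 0.05 FPKM and Degs2 0.07. Of 6 tested genes that use or move ceramide, 0 passed in PA or LA against Vehicle, 1 fell with NTP under PA and 2 under LA, where the share of all genes called was 14.9%, 10.6%, 13.9% and 19.3%. Samd8, a sphingomyelin synthase homologue that acts as a ceramide sensor, fell with NTP by 0.59 under PA and 0.78 under LA on the log2 scale, and Cert1, which carries ceramide to the Golgi, fell with NTP under LA by 0.70. Without the GC trend Samd8 stood at -0.60 and -0.78, both still called, and at 0.59 in PA against Vehicle, where it became called (0.58 before), while Cert1 at -0.45 was not called. The median of the list was 0.27 and 0.20 for PA and LA and -0.37 and -0.29 for NTP, and that of the regulators 0.40, 0.31, -0.33 and -0.34, beside -0.01, -0.01, 0.01 and 0.01 for all genes. Without the GC trend the medians were 0.06, 0.08, -0.19 and -0.09 for the list and 0.23, 0.23, -0.24 and -0.21 for the regulators, beside 0.03, 0.02, -0.04 and -0.03 for all genes.

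Of 7 tested genes that return complex sphingolipids to ceramide (list medians -0.40, -0.29, 0.30 and 0.35, and -0.13, -0.11, 0.12 and 0.07 without the GC trend), 1 rose and 1 fell in PA, 0 passed in LA, and 1 rose with NTP under each FFA, beside 14.9%, 10.6%, 13.9% and 19.3% of all genes called. Smpd3, a neutral sphingomyelinase, was at 4.03 and 3.70 FPKM in Vehicle, 1.77 and 2.13 in PA, 5.08 and 3.47 in PA+NTP, 2.90 and 2.73 in LA, and 5.54 and 5.09 in LA+NTP. It fell in PA (-0.92 ± 0.15, edgeR adjusted p = 0.000243) and rose with NTP under PA (1.04 ± 0.15, 7.17e-05) and LA (0.87 ± 0.14, 0.00011). Its values without the GC trend were -0.65, 0.75 and 0.50, and the first 2 were still called. Galc, the lysosomal galactosylceramidase, rose in PA by 0.61 ± 0.12 (edgeR adjusted p = 0.00118), a call lost without Vehicle replicate 1 (0.56) or PA replicate 2 (0.46) and with the GC trend removed (0.51).

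Of 10 tested genes of ceramide breakdown and sphingosine phosphate (list medians 0.27, 0.18, -0.17 and -0.26, and 0.23, -0.01, -0.13 and -0.08 without the GC trend), 1 rose and 1 fell in each of PA and LA, 1 rose and 1 fell with NTP under PA, and 1 rose and 3 fell with NTP under LA, again beside 14.9%, 10.6%, 13.9% and 19.3% of all genes. Sphk2, a sphingosine kinase, fell in PA (-0.76 ± 0.10) and LA (-0.95 ± 0.09) and rose with NTP (0.91 ± 0.09 and 1.17 ± 0.09), with edgeR adjusted p-values from 3.29e-07 to 2.31e-05. The alkaline ceramidase Acer3 went the other way, at 0.61 ± 0.10 and 0.74 ± 0.10 with the FFAs and -0.59 ± 0.10 and -0.73 ± 0.09 with NTP. The acid ceramidase Asah1 (-0.63 ± 0.06) and the sphingosine phosphate phosphatase Sgpp1 (-0.61 ± 0.08) fell with NTP under LA. None of these was called after removal of the GC trend: Sphk2 stood at -0.31, -0.47, 0.44 and 0.55, Acer3 at 0.29, 0.38, -0.27 and -0.30, Asah1 at -0.31 and Sgpp1 at -0.42.

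Several of these calls rested on a fold just past the threshold and ended when 1 library was left out. Acer3 was at 0.57 in PA without PA replicate 2, and at -0.56 with NTP under PA without PA replicate 2 and -0.52 without PA+NTP replicate 1. Samd8 under PA with NTP was at -0.52 and -0.55 without the same libraries. Cert1 was at -0.58 without LA+NTP replicate 1, and Sgpp1 at -0.53 without LA replicate 1 and -0.55 without LA+NTP replicate 1. In the other direction, Samd8 in PA against Vehicle passed without Vehicle replicate 1 or PA replicate 1 (0.64 each), Asah1 with NTP under PA without any of 5 libraries (-0.65 to -0.59), Sgpp1 in LA without LA replicate 2 (0.59), and Gba2, a glucosylceramidase, with NTP under LA without LA replicate 1 (0.61).

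Scaling and filtering ended some of the same calls. With limma on log2(FPKM + 1), Acer3 stood at 0.48 in PA, -0.45 with NTP under PA and -0.58 with NTP under LA, Samd8 at -0.50 with NTP under PA, Galc at 0.44 in PA, and Asah1 and Sgpp1 at -0.58 and -0.52 with NTP under LA. With log2(FPKM + 0.1) the calls lost were those of Acer3 (0.56 in PA and -0.52 with NTP under PA), Samd8 (-0.53), Galc (0.54) and Sgpp1 (-0.56). Library totals ended the calls of Acer3 (0.58 and -0.54), Samd8 (-0.54), Galc (0.57) and Sgpp1 (-0.57), and a filter at a mean of 1 FPKM those of Acer3 (0.58 and -0.56), Samd8 (-0.56) and Galc (0.58). The calls of Ormdl1, Sphk2 and Smpd3 held under each of these settings, and those of Smpd3 under PA also without the GC trend.

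**Figure D5:**
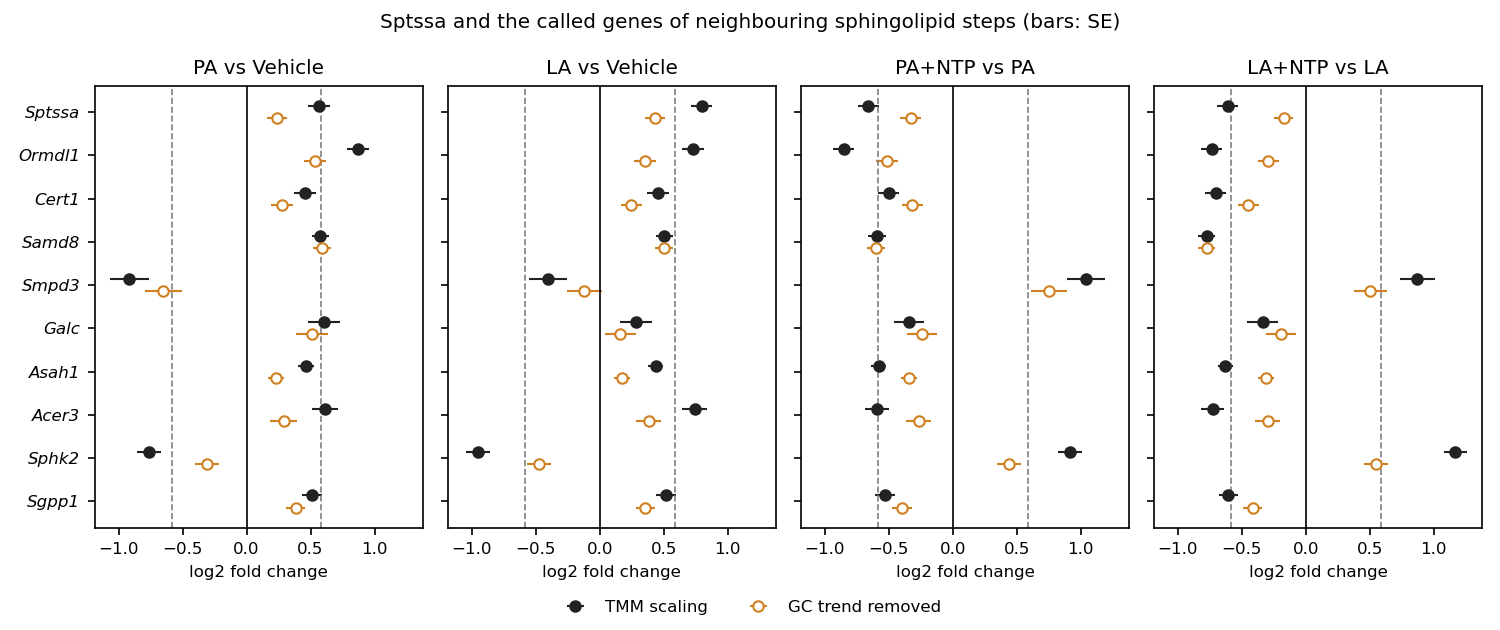
Log2 fold change with its SE for Sptssa and the 9 called genes of neighbouring sphingolipid steps in the 4 main comparisons, with TMM scaling (filled) and after removal of the GC trend (open); dashed lines mark a fold of 1.5. Sphk2 and Smpd3 lie opposite to the other 8 genes in every panel, and Samd8 keeps nearly the same value in both fits.

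Among 11115 other genes that averaged 1 FPKM or more, the 3 whose log2 CPM, counts scaled to library size, followed Sptssa most closely over the 10 libraries were Ncoa4 (Pearson's r = 0.978), a receptor for the autophagy of ferritin, Slc35g2 (0.977), a solute carrier, and Yipf6 (0.976), a membrane protein of the Golgi. They share the libraries and an AT-rich transcript with Sptssa, at 43.8%, 44.3% and 41.0% GC, so the likeness is a description only. Within the pathway, r with Sptssa was 0.884 for Kdsr, 0.745 for Sptlc1, 0.451 for Sptlc2, 0.429 for Cers5 and 0.413 for Degs1. It was -0.49 for Cers6 and -0.82 for Cers2.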

How the data were processed

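RNA was measured in 10 libraries from mouse primary hepatocytes, in 5 groups of 2. Per the submitters' notes, reads were aligned to mm10 with HISAT and Bowtie2 and quantified with RSEM; versions of these tools were not stated. As deposited by the authors, the tables give RSEM expected counts, which can hold fractions, for each gene. The authors' FPKM values are the same fragments scaled by transcript length and library depth, and only genes of at least 0.01 FPKM are listed. The NTP dose was taken from a figure legend of the study.

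Expected counts were rounded and fitted over all 5 groups with edgeR 4.0.16 in R 4.3.3: filterByExpr, TMM factors, the quasi-likelihood F test and Benjamini-Hochberg adjustment over 14097 genes, with 3958 dropped. A call needed an adjusted p under 0.05 and a fold of at least 1.5. The GC trend was a loess curve (span 0.4) of each gene's deviation on transcript GC from GENCODE M21, available for 98.4% of genes. Shares of the ceramide synthases were compared by exact permutation over libraries (Python 3.11.15, scipy 1.17.1).

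Alternatives were DESeq2 1.42.0, library totals without TMM, no filter or a mean FPKM of at least 1, limma 3.58.1 on log2(FPKM + 1) and log2(FPKM + 0.1), only the groups compared, a replicate block, removal of the GC trend with and without that block, adjusted p alone, and leaving out each library. The study's own test, NOISeq, was not used. Only the edgeR test and the call rule were tried on simulated counts, which held no GC trend. Removal of the GC trend, DESeq2, limma and the permutation test were not tried in this way. Members and gene lists were chosen with earlier results of these data known. Members called in any contrast were to be given in every library, genes of neighbouring steps named when called in an FFA or NTP comparison, and the 3 genes most like the member with the largest called change named. Other values in single libraries were chosen after they were seen. Macrophage markers were Clec4f, Vsig4, Timd4, Adgre1, Cd68, Csf1r and Marco, and hepatocyte markers Alb, Apoa1, Ttr, Cps1, Hnf4a, Serpina1c and Tat. Stellate markers were Lrat, Reln, Des, Pdgfrb, Col1a1, Dcn and Acta2, and endothelial markers Stab2, Lyve1, Clec4g, Kdr, Cdh5 and Pecam1. Cholangiocyte markers were Krt19, Krt7, Epcam and Sox9.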

Additional observations from a re-analysis of the deposited data

How the results depend on the processing

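Of 9 members tested with edgeR, the number called was 0 in PA vs Vehicle and 1 each in LA vs Vehicle, PA+NTP vs PA, LA+NTP vs LA and NTP across both FFAs. By adjusted p alone it was 6 in PA vs Vehicle, 5 in LA vs Vehicle, 5 in PA+NTP vs PA, 5 in LA+NTP vs LA, 2 in PA+NTP vs LA+NTP, 1 in PA+NTP vs Vehicle and 6 for NTP across both FFAs, because no fold was asked for. With the GC trend removed it was 0 in LA vs Vehicle, 0 in PA+NTP vs PA, 0 in LA+NTP vs LA and 0 for NTP across both FFAs, and with the GC trend removed and a replicate block it was again 0, 0, 0 and 0. With limma on log2(FPKM + 1) it was 0 in PA+NTP vs PA, 0 in LA+NTP vs LA and 0 for NTP across both FFAs, and with limma on log2(FPKM + 0.1) 0 in LA+NTP vs LA and 0 across both. Library totals without TMM gave 0 in LA+NTP vs LA, as did counting Mir1892 with Sptssa, which was chosen after seeing the data. In the GC fit 3, 3, 3 and 5 members had an unadjusted edgeR p under 0.05 in these 4 comparisons, and DESeq2 without GC removal called 1 in each. The cause was not tested.

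Leaving out 1 library gave 0 to 1 members in PA vs Vehicle (1 without PA replicate 1), 0 to 1 in PA+NTP vs PA (0 without PA+NTP replicate 2) and 0 to 1 in LA+NTP vs LA (0 without LA replicate 1), where the lone library is assumed to vary like the other groups. Groups share replicate numbers, and with the number as a replicate block Sptssa stood at 0.57 in PA vs Vehicle, 0.79 in LA vs Vehicle, -0.67 in PA+NTP vs PA and -0.61 in LA+NTP vs LA, with the same numbers of members called. Among values of single members, with the genes of neighbouring steps not counted, 1808 stayed on the same side of the threshold. Where not called, these also stayed within 1 SE of the main value, some of them near 0 with the other sign. A further 117 not called values of members moved by more than 1 SE. Another 27 newly passed, 26 of them by adjusted p alone, which asks for no fold. The remaining 1 (Sptssa in PA vs Vehicle, without PA replicate 1) went past the fold threshold itself. In the same count 17 no longer passed, and 0 called values changed sign. No called change of a member reversed. Calls of neighbouring genes that were gained or lost are not part of this count, and several are described above. Cers4 rested on 2 libraries a group and 4 to 39.1 counts in a library, and what size of change could be detected at such counts was not tested.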
